A study of Mus musculus with 2 samples.

Results

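The genes described here encode the core of the microRNA processing and silencing machinery: Dgcr8 and Xpo5, Dicer1, the Argonautes Ago1 to Ago4, and the GW182 proteins Tnrc6a, Tnrc6b and Tnrc6c. A probe was taken as theirs when its name in the array files was the gene's name, when it was the older name (Eif2c1 to Eif2c4 for the Argonautes), or when its RefSeq accession has the gene as its current symbol. This gave 13 of the 55674 probes and 10 of the 36493 names counted as genes. A name was the RefSeq symbol for 47.2% of probes and otherwise the name in the array files. A probe without a gene name was counted under its own probe name, so values for all genes include such probes. Gene expression was measured on 1-colour oligonucleotide arrays, with 1 array of miR-153-overexpressing cells (labelled TNs_miR-153_OE) and 1 array of their control (TNs_control_OE). Both held total RNA of neural stem and progenitor cells that came from mouse ES cells by way of embryoid bodies. Both cultures were tertiary neurospheres at passage 2, taken on day 18 after the embryoid bodies. The strain, the means of overexpression and what the control cells carried are not given in the sources used here, and neither mature miR-153 nor any other mature microRNA was measured.

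MicroRNAs are cut in the nucleus out of long hairpin transcripts by the enzyme Drosha with its RNA-binding partner DGCR8, and the short hairpin is carried to the cytoplasm by exportin 5 with the small GTPase Ran. Dicer then trims the hairpin to a duplex, of which a single strand is kept by an Argonaute protein, and the bases near its 5′ end, the seed, pair with messenger RNAs. GW182 proteins bind the Argonaute and bring in the deadenylases and decapping enzymes that silence the target. In neural stem cells this pathway is known for its part in the timing of neuron and glia production.

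The agent of the experiment is shown first, as both mature strands of mouse miR-153 from RefSeq (GRCm38.p6, chromosome 12, plus strand), with the seed, bases 2 to 8, in capitals.
mmu-miR-153-3p: uUGCAUAGucacaaaagugauc
mmu-miR-153-5p: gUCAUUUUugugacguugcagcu
The 2 strands have different seeds. Array probes of 60 bases that results below turn on are shown next, as listed in the array files with mm9 positions. They are the probe of Ago3, the Argonaute detected on 1 array only (chr4:126032332-126032391, minus strand), that of Xpo5, the measured gene with the lowest difference (chr17:46378755-46378814, plus strand), that of Tnrc6b, the GW182 gene with a difference below 0 (chr15:80759793-80759852, plus strand), and the dimmer probe of Ago1, whose sign differs from that of the brighter (chr4:126117202-126117261, minus strand).
Ago3: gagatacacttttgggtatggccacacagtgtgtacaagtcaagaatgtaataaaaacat
Xpo5: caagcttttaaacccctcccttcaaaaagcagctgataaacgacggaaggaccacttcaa
Tnrc6b: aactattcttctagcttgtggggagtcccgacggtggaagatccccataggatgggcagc
Ago1: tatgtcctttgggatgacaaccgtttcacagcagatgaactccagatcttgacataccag

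Levels are log2 of the background-subtracted intensity minus the 75th percentile of the same array, so that 0 is a probe at that percentile (549 intensity units on the miR-153 array and 435 on the control array). Differences are log2 level on the miR-153 array minus that on the control array. With 1 array per group there was no replicate and no test, and a gene was called higher or lower at a fixed size of at least 2-fold. Each ± is 1 SD as estimated by the scanner software for the spot, which covers technical error within an array only. For bright spots this estimate was a nearly fixed share of the signal, so ± 0.20 on a difference says little about the single gene. Different probes of a gene gave differences with a pooled SD of 0.46 over 3442 genes. For repeat spots of a probe the median SD over 263 probes was 0.07, a measure less moved by poor probes than a pooled SD. Each machinery probe had a single spot, and none carried an outlier flag. The software called 55.6% of the 59305 non-control spots well above background for the miR-153 cells and 52.5% for the control cells. Over all genes the median difference was -0.11, and it was 0.12 when the arrays were scaled on spike-in RNA, which added 0.23 to every difference.

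The measured machinery genes had differences of both signs. Of the 10 genes, 9 were measured, meaning well above background, on both arrays. Only Tnrc6c reached 2-fold, being higher in the miR-153 cells, 0 genes were 2-fold lower, and 8 lay between. Of all 20490 genes with a measurement on each array, 20.3% reached 2-fold, 9.21% by being higher and 11.1% by being lower, so 1 gene of 9 is close to the general share. The general split depended on scaling: 1887 genes were higher and 2265 lower here, but 2784 higher and 1565 lower under spike-in scaling. In order of difference the genes were Tnrc6c (1.19), Ago4 (0.82), Tnrc6a (0.58), Dgcr8 (0.37), Dicer1 (0.29), Ago1 (0.07), Tnrc6b (-0.53), Ago2 (-0.73) and Xpo5 (-0.82). Thus 6 were above 0 and 3 below. Their median was 0.29, against -0.11 for all genes measured on both arrays and 0.04 for the 4412 genes in the same range of level. The median size of the difference, regardless of sign, was 0.58 for the machinery and 0.50 for all genes. Beyond the SD between probes of a gene lay 6 of the 9, against 53.3% of all genes.

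**Figure D1:**
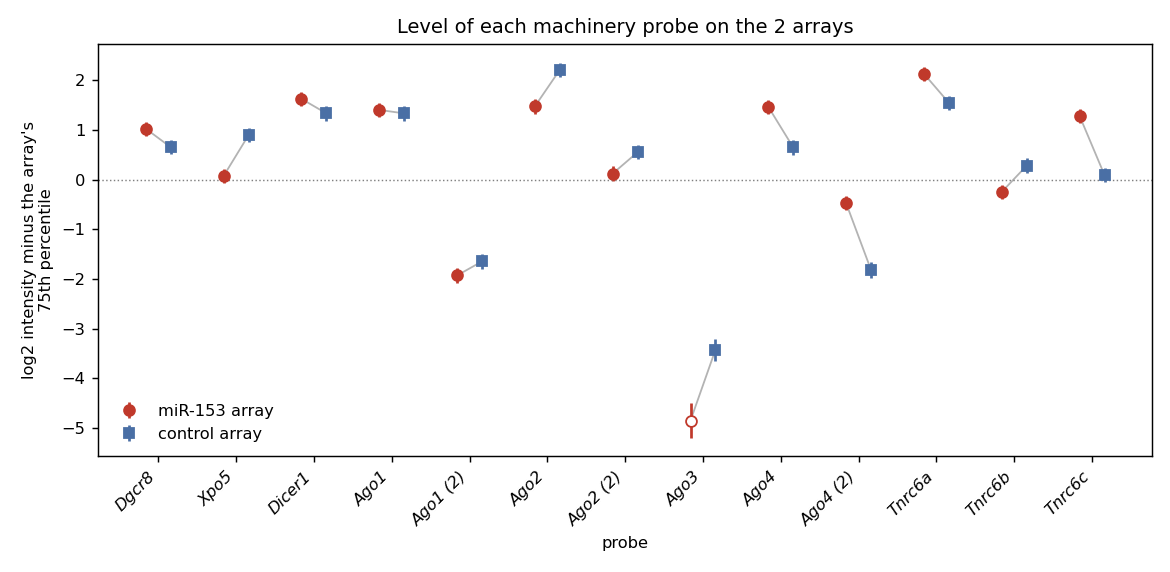
Level of each of the 13 machinery probes, as log2 intensity minus the 75th percentile of the array, on the miR-153 array (red circles) and the control array (blue squares). Bars are 1 SD of the scanner software's error estimate, "(2)" marks the dimmer probe of a gene, and the open symbol is not well above background. Lines slope down toward the control array for Tnrc6c and both Ago4 probes and up for Xpo5, Tnrc6b and both Ago2 probes.

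The nuclear steps were represented by Dgcr8 and Xpo5, and their probes differed in opposite directions. Dgcr8, Drosha's RNA-binding partner in the Microprocessor, read 1116 ± 112 intensity units on the miR-153 array and 683 ± 68.5 on the control array. After scaling this was a difference of 0.37 ± 0.20 (1.29-fold), less than the SD between probes of a gene. Its probe lies at chr16:18254226-18254285 on the minus strand (mm9).

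Xpo5 encodes exportin 5, the carrier of hairpin precursors. It read 577 ± 57.9 units on the miR-153 array, against 807 ± 80.9 on the control array, a difference of -0.82 ± 0.20 (1.76-fold lower). Of all genes measured on both arrays, 15.4% had a still lower difference. The gap between Dgcr8 and Xpo5 was 1.19, or 1.83 times the SD expected between 2 probes of the same gene (the between-probe SD times the square root of 2). This SD holds no variation between cultures. Gaps between genes outside these families were not computed, so such a multiple does not say whether a gap is unusual.

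Dicer1, which encodes the enzyme that trims hairpins to duplexes, read 1691 ± 169 units on the miR-153 array and 1095 ± 110 on the control array. The difference of 0.29 ± 0.20 (1.22-fold higher) was below the SD between probes of a gene. Its probe is at chr12:105926064-105926123, on the minus strand, and no second probe was available to check it.

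The Argonautes hold the guide strand and find the target, and Ago2 is the mammalian member best known for cutting it. Their probes differed from gene to gene. Ago4 had the highest difference of them. It read 1513 ± 151 units on the miR-153 array and 681 ± 68.3 on the control array with its brighter probe (chr4:126169537-126169596). Its difference of 0.82 ± 0.20 (1.76-fold higher) fell short of 2-fold. Its other probe (chr4:126167162-126167221), which lies 2375 bases further along the transcript, read 395 ± 39.6 units on the miR-153 array and 123 ± 13.1 on the control array. That probe gave 1.34 ± 0.21 (2.54-fold higher), past the 2-fold size, and the mean of the Ago4 probes was 1.08 ± 0.37 (SD of 2 probes). Whether Ago4 passed 2-fold therefore depended on the probe, while both probes were higher on the miR-153 array.

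Ago2 had differences below 0 on both of its probes. The brighter (chr15:72936863-72936922) read 1524 ± 152.5 units on the miR-153 array and 2007 ± 201 on the control array, a difference of -0.73 ± 0.20 (1.66-fold lower). The other (chr15:72935705-72935764) read 597 ± 59.8 units on the miR-153 array and 637 ± 63.9 on the control array, or -0.43 ± 0.20. Neither reached 2-fold, and the mean was -0.58 ± 0.21 (SD of 2 probes). In unscaled intensity, too, both Ago2 probes were dimmer on the miR-153 array, but the second by less than the error estimate of either reading. The scaled difference of the second probe was also less than the SD between probes of a gene.

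Ago1 had no settled direction. Its brighter probe (chr4:126112644-126112703) read 1450 ± 145 units on the miR-153 array and 1095 ± 110 on the control array, a difference of 0.07 ± 0.20. The dimmer probe, whose sequence is given above, read 144 ± 15.0 units on the miR-153 array and 139 ± 14.7 on the control array, or -0.28 ± 0.21. The mean of both was -0.11 ± 0.25 (SD of 2 probes), no further from 0 than the median of all genes.

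Ago3 was close to background. Its single probe read 19.1 ± 4.54 units on the miR-153 array, not well above background, and 40.5 ± 6.17 on the control array, where it was. Taken at its own dim signal there, it was 2.68-fold lower on the miR-153 array, a log2 difference of -1.42 ± 0.41. That signal exceeded the lowest of any probe well above background on that array, so it was used for the bound. The bound of Ago3 is therefore its plain difference and not a strict minimum. Among the 23151 genes well above background on at least 1 array, 3.11% were so on the control array only, and 2.13% had a bound of at least 2-fold in that direction. On the log2 scale the bound was 1.42, and 0.59 with another background correction (normexp), short of 2-fold.

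RefSeq places Ago3, Ago1 and Ago4 next to each other on chromosome 4, with no other protein-coding gene between them, and Ago2 on chromosome 15. The neighbours did not share a difference: Ago4 was at 0.82, Ago1 at 0.07 and Ago3 was detected only on the control array. The gap between Ago4 and Ago2, the highest and lowest of the measured Argonautes, was 1.55, or 2.37 times the SD expected between 2 probes of the same gene. It ranged from 1.40 (normexp) to 1.77 (second brightest probe) over 11 other ways of processing the data. Those that only scale each array by 1 factor could not move it, since they shift both genes alike. The gaps of Ago1 from Ago2 (0.80) and of Ago4 from Ago1 (0.75) were 1.23 and 1.14 times that SD.

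The GW182 family links Argonautes to the enzymes of mRNA decay, and its 3 genes did not share a direction. Tnrc6c read 1332 ± 133 units on the miR-153 array and 463 ± 46.6 on the control array. Its difference of 1.19 ± 0.20 (2.28-fold higher) was the highest signed difference among the 9 genes measured on both arrays, each by its brightest probe. The dimmer Ago4 probe was higher (1.34) and the Ago3 bound larger in size (1.42). Of all genes so measured, 6.57% had a higher difference than Tnrc6c. The probe lies at chr11:117624691-117624750, on the plus strand, and is the only Tnrc6c probe.

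Tnrc6a encodes GW182 itself, the family's founding member. It read 2398 ± 240 units on the miR-153 array and 1269 ± 127 on the control array, a difference of 0.58 ± 0.20 (1.498-fold) on chr7:130338627-130338686. Tnrc6b read 463 ± 46.4 units on the miR-153 array and 528 ± 53.0 on the control array, or -0.53 ± 0.20 (1.44-fold lower), on a probe for which the files list 2 RefSeq transcripts. The gap between Tnrc6c and Tnrc6b, the highest and lowest of the family, was 1.72, which is 2.63 times the SD expected between 2 probes of the same gene. Between Tnrc6a and Tnrc6b it was 1.11 (1.70 times). The gap between Tnrc6c and Tnrc6b stayed between 1.57 and 1.72 over 11 other ways of processing. Most of these could not move it, since scaling by 1 factor per array shifts both genes alike and each has 1 probe. It changed only with normexp (1.57), quantile normalization (1.72) and removal of the intensity trend (1.71). Tnrc6c and Tnrc6a differed by 0.61, or 0.93 times that SD.

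**Figure D2:**
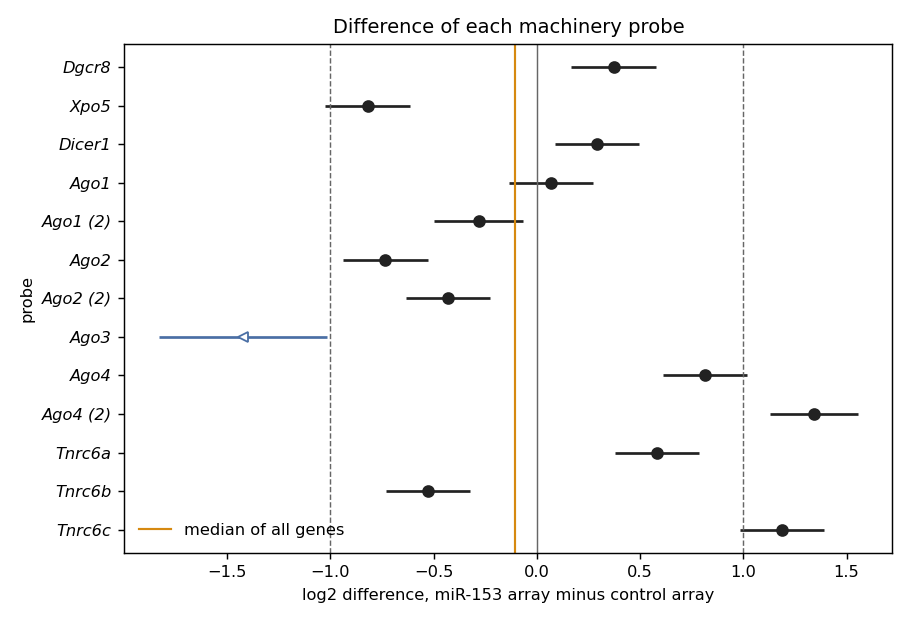
Log2 difference, miR-153 array minus control array, for each of the 13 probes, with bars of 1 SD from the scanner software's error estimate. Dashed lines mark 2-fold, the orange line is the median of all genes (-0.11), and the open triangle marks Ago3, whose miR-153 signal was not well above background. Only Tnrc6c and the dimmer Ago4 probe lie right of the upper 2-fold line.

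**Figure D3:**
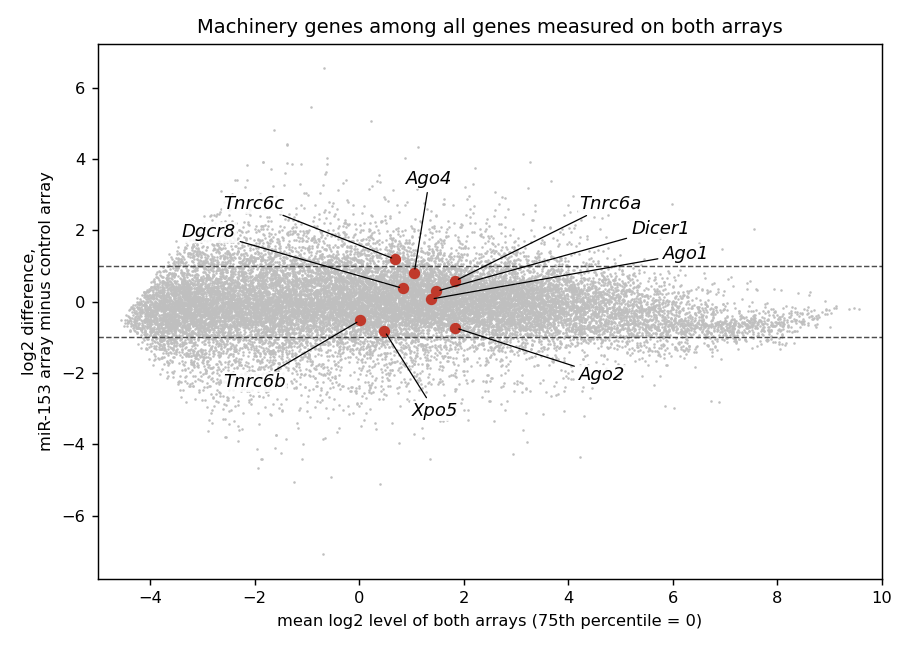
Log2 difference against mean log2 level for the 20490 genes measured on both arrays (grey), with the 9 measured machinery genes in red and dashed lines at 2-fold. The machinery genes lie between the 2-fold lines apart from Tnrc6c at 1.19.

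Genes that work with this machinery were examined from lists of 86 others, of which 81 were measured on both arrays. Higher by 2-fold or more in the miR-153 cells were 3 (3.70%), lower by as much were 5 (6.17%), and 73 did not reach 2-fold. Their median was 0.02. Both shares are below those of all genes (9.21% and 11.1%), which include dim and nameless probes. With only probes at or above the median level kept, 2 of 69 pathway genes were higher and 4 lower, against 862 and 1043 of 11387 genes. The 3 higher were Btg2 (1.51), Edc3 (1.18) and Adarb1 (1.14), and the 5 lower were Pabpc4 (-1.31), Mov10 (-1.24), Dcp2 (-1.08), Ran (-1.04) and Rcc1 (-1.01).

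Among 12 genes of the Microprocessor and of nuclear export, 2-fold was reached by 2, both lower, and the median was 0.10. The 2 lower ones, Ran and Rcc1, encode the GTPase that exportins bind and the exchange factor that loads it with GTP. Ran read 63491 units on the miR-153 array and 103296 on the control array, and its other probe gave -0.71. It stood at -0.41 after quantile normalization and at -0.43 after removal of the intensity trend (lowess), short of 2-fold in both. Rcc1 read 5322 units on the miR-153 array and 8482 on the control array, and it too was short of 2-fold after quantile normalization (-0.93) and lowess (-0.87). Under spike-in scaling Rcc1 was at -0.78 and Ran at -0.81. Xpo5, their partner in hairpin export, was at -0.82. Drosha, the nuclease that works with DGCR8 and a gene singled out after its values were seen, was at 0.02. The highest of the list were the cap-binding gene Ncbp2 (0.76, with a second probe at 0.04) and the helicase gene Ddx17 (0.75, with a second probe at 0.36). Ddx17 passed 2-fold after quantile normalization (1.22) and lowess (1.21).

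Of 4 Dicer partners and editors of double-stranded RNA, 1 was at least 2-fold higher and 0 lower. Adarb1, an adenosine deaminase that edits neuronal transcripts, read 2433 units on the miR-153 array and 877 on the control array. The RNA-binding partners of Dicer were close to 0, with Prkra at 0.13 and Tarbp2 at -0.13, or at 0.10 under spike-in scaling. Adar, the other deaminase and a gene outside the naming rule, was at 0.09, with a second probe at -0.47.

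The list of Argonaute loading and localisation had the lowest median of the pathway lists, -0.45, with 1 of 21 at least 2-fold lower and 0 higher. This median was not recomputed after lowess, and the housekeeping genes described below had a median of -0.42. Mov10, an RNA helicase found with Argonautes, read 551 units on the miR-153 array and 1034 on the control array. Limd1, a scaffold of the silencing complex, was at -0.94. Fxr2, of the fragile X family, was at 0.84 and the ubiquitin ligase gene Trim32 at 0.71. P4ha1, a gene outside the naming rule, was at -0.69 on its brighter probe and at -1.75, past 2-fold, on its other.

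Among 20 deadenylases and their cofactors, 1 gene was 2-fold or more higher, 1 was lower by that much and 18 were neither, and the median was 0.07. Btg2, an antiproliferative gene whose product binds the CCR4-NOT deadenylase, read 3760 units on the miR-153 array and 1050 on the control array. Cnot7, a catalytic subunit of that complex, was at 0.56. Of the poly(A)-binding protein genes, Pabpc4 was at -1.31 and Pabpc1 at -0.82. Pabpc1 stood at -0.36 after quantile normalization and at -0.39 after lowess, less than the SD between probes of a gene.

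Among 14 decapping and decay genes, 1 was at least 2-fold higher and 1 lower, with a median of -0.01. Edc3, an enhancer of decapping, read 373 units on the miR-153 array and 130 on the control array. Dcp2, the decapping enzyme, was dim, at 100.1 units on the miR-153 array and 168 on the control array. Its difference was -0.79 with normexp background correction, short of 2-fold, and that of Edc3 was 0.88. Dcp1b was at 0.86 and the exonuclease gene Xrn1 at -0.64.

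Of 12 modulators of microRNA maturation, 10 were measured on both arrays and 0 of those differed by 2-fold, with a median of 0.21. Lin28b, whose product blocks let-7 maturation, was at 0.68 and Smad1 at 0.67, with a second Smad1 probe at 1.32. Tent2, a cytoplasmic poly(A) polymerase, was at -0.92 and the KH-type splicing regulator Khsrp at -0.50. The other 2, Henmt1 and Zc3h12a, lacked a signal well above background in both cultures. The same held for the 3 Piwi genes, Piwil1, Piwil2 and Piwil4, the germline relatives of the Argonautes.

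**Figure D4:**
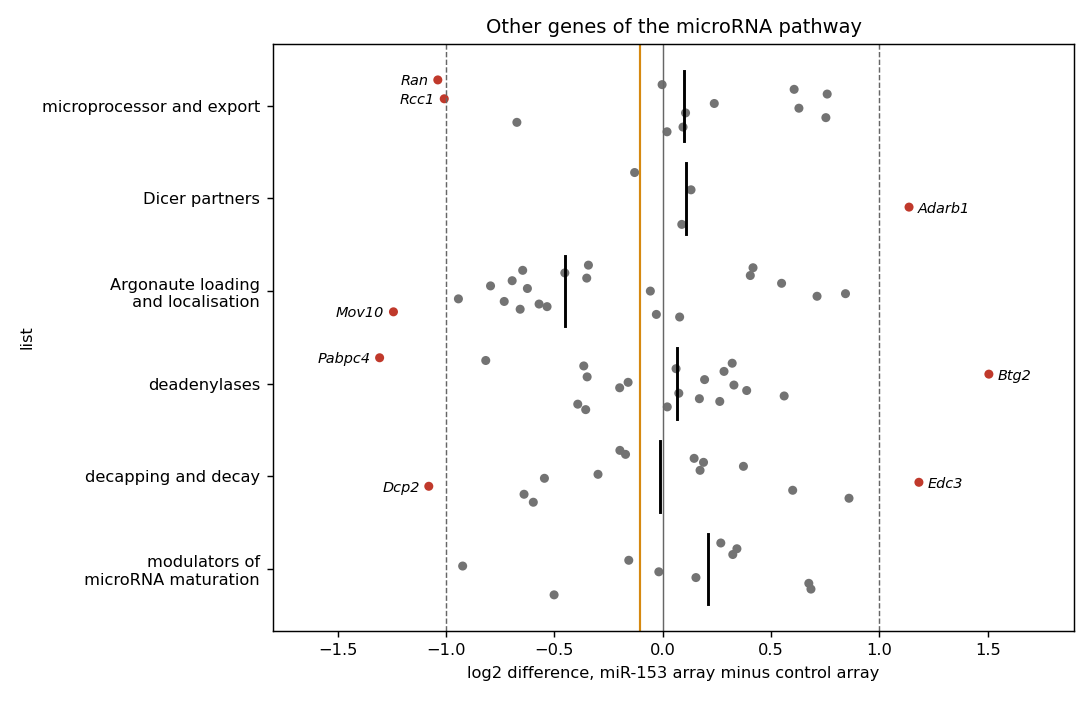
Log2 difference, miR-153 array minus control array, of 81 other genes of the microRNA pathway, by list, with each list's median as a black bar, 2-fold as dashed lines and the median of all genes in orange. The 8 genes at least 2-fold apart are named in red, and the Argonaute loading list has its median at -0.45.

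The cells on the arrays differed in much else besides, and in bulk RNA fewer cells of a type and less RNA per cell cannot be told apart. All 10 neural stem and progenitor markers were well above background on both arrays, with 3 higher by 2-fold or more, 0 lower and a median difference of 0.17. The neuron list had 5 of 8 markers higher by 2-fold or more and 0 lower (range 0.75 to 2.97), and their summed level, in multiples of the 75th percentile, was 141 on the miR-153 array and 52.1 on the control array. Among oligodendrocyte markers 5 of 6 were higher by that much (summed level 65.4 on the miR-153 array and 9.99 on the control array), and of 6 astrocyte markers 1 (98.7 on the miR-153 array and 87.4 on the control array). All 6 markers of dividing cells were at least 2-fold lower (summed level 15.9 on the miR-153 array and 84.7 on the control array). Of 6 pluripotency markers 4 were measured, with 2 lower by 2-fold or more (summed level 2.73 on the miR-153 array and 5.36 on the control array), and of 4 mesenchymal markers 2 were higher by that much (3.33 on the miR-153 array and 2.56 on the control array). Of 10 housekeeping genes 3 were lower by 2-fold or more, with a median of -0.42. Of the 5 blood and microglia markers 4, and of the 4 endothelial markers 2, had no signal well above background in either culture. The part of these cell markers in the machinery's differences was not tested.

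Some probes without a gene name lie close to machinery probes. Downstream of the Ago2 probes, on the same strand, lie 2 such probes, 6758 and 9279 bases away (chr15:72928888-72928947 and chr15:72926367-72926426). They gave -0.74 and -0.46, beside -0.73 and -0.43 for the named Ago2 probes, and the files do not say which transcript they measure. A nameless probe between those of Ago1 and Ago4, also on the minus strand (chr4:126153528-126153587), gave -0.25. A probe described in the files as part of an Argonaute 4 protein is placed on chromosome 9 (chr9:116109635-116109694), was not counted as Ago4, and gave -0.42. These probes were singled out after their values were seen.

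RefSeq also places microRNA genes inside machinery genes: Mir1306 in Dgcr8, Mir5113 in Tnrc6b and Mir693 in Xpo5. The letters complementary to the miR-153-3p seed, CTATGCA, were searched on the listed strand of the probes. They occur in 0 of the 13 machinery probes and in 0.336% of all 55674 probes. Those complementary to the miR-153-5p seed, AAAATGA, occur in 0 of the 13 and in 1.12% of all. This says only that the letters are not in these short windows.

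**Figure D5:**
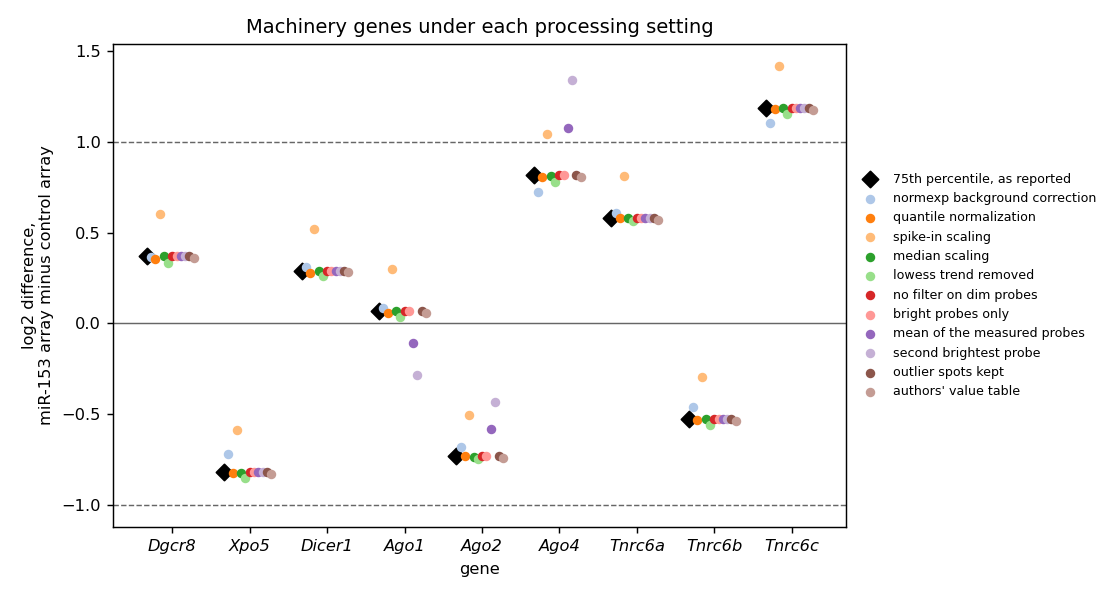
Log2 difference, miR-153 array minus control array, of the 9 measured machinery genes under the reported setting (black diamonds) and 11 alternatives (coloured circles), with dashed lines at 2-fold. Only Ago1 changes sign, from 0.07 to -0.28 on its second probe, and Ago4 passes the upper 2-fold line under 3 alternatives.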

How the data were processed

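Total RNA of 2 cultures was measured in this series, 1 array each, so no test and no p-value could be given. The authors deposited scanner intensities, and the submitters' processing notes name Agilent Feature Extraction, version 10.7.3.1. The processed signal is a background-subtracted linear intensity, and the software's error estimate and its flags of 0 or 1 are as deposited. The normexp alternative started instead from the deposited mean signal and median background of each spot. The series table holds intensities the authors deposited, equal to the processed signal divided by 485 (miR-153 array) and 381 (control array), with medians of 0.0614 and 0.0662; it served as an alternative.

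From these were computed log2 of the processed signal minus each array's 75th percentile over non-control spots, without 229 outlier spots, and means over repeat spots. Accessions were matched without versions to RefSeq (GRCm38), for 47.2% of probes, and probe positions are mm9, per the file headers. The brightest measured probe stood for a gene. For a gene well above background on 1 array only, the fold is called a bound, set against the higher of its own signal and the dimmest detected probe there. Where its own signal was used, the bound is the plain difference.

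The members, lists and rules were chosen with earlier results of these data known. Named genes were all members, every listed pathway gene at least 2-fold apart, and the 2 highest and 2 lowest differences of each list. The calculation was tested on simulated data whose planted differences exceeded those of the machinery, with less noise than between probes here. Such a test checks the code only. Tools were Python 3.11.15, pandas 2.3.3, statsmodels 0.14.6, R 4.3.3 and limma 3.58.1. The number of arrays limits the precision, and no spot was saturated.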

Additional observations from a re-analysis of the deposited data

How the results depend on the processing

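Every alternative was compared with scaling on the 75th percentile. Of the 9 measured machinery genes, 8 kept their sign under all 11 alternatives other than fold thresholds, and Ago1 was at -0.11 as the mean of its probes and -0.28 on its second probe. For machinery genes with a single probe, the alternatives on dim probes, choice of probe and outlier spots returned the reported value. These could not change the sign there. Tnrc6c ranged from 1.10 to 1.42, Xpo5 from -0.85 to -0.59, Ago2 from -0.75 to -0.43 and Tnrc6b from -0.56 to -0.30. Ago4 was at 1.34 on its second brightest probe. The count of machinery genes at least 2-fold higher was 2 in place of 1 under spike-in scaling, with the mean of the probes and with the second brightest probe, where Ago4 joined Tnrc6c. With no filter on dim probes 1 was lower, Ago3 at -1.42, in place of 0. The Ago3 bound was 0.59 on the log2 scale with normexp (offset 50). At 1.5-fold 2 were higher and 2 lower, and at 3-fold 0 were higher. Of the other pathway genes, 5 in place of 3 were at least 2-fold higher under spike-in scaling, after lowess and with the second brightest probe. At least 2-fold lower were 2 in place of 5 with normexp and spike-in scaling and 3 with quantile normalization and lowess. At 1.5-fold 13 were higher and 17 lower, and at 3-fold 0 and 0. The machinery median ranged from 0.18 to 0.52. Over all genes, those at least 2-fold higher and lower numbered 1887 and 2265, or 1199 higher with normexp, 3607 and 4371 with no filter, 862 and 1043 with bright probes only, 3799 and 5051 at 1.5-fold, and 644 and 879 at 3-fold. More genes were higher than lower under spike-in scaling (2784 and 1565), lowess (2067 and 1929) and quantile normalization (2051 and 1967). Beyond what the settings' construction shows, the cause was not tested. No paired analysis was possible because each group has 1 array and the labels give no replicate numbers.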
